A study of Homo sapiens with 148 samples.

Results

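The LIM-homeodomain factors are transcription factors that carry a pair of LIM zinc-binding domains in front of a DNA-binding homeodomain. The set described here was chosen by gene name and holds LHX1, LHX2, LHX3, LHX4, LHX5, LHX6, LHX8, LHX9, LMX1A and LMX1B, that is, the LIM-homeodomain genes other than ISL1 and its close relative ISL2. All 10 members were found, with 1 entry each, among the 49085 gene names of a table of mean RNA levels at 6 stages of pancreatic differentiation. RNA-seq, which estimates the RNA of each gene by sequencing fragments of it, was performed on H9 cells, an established human embryonic stem cell line, before and during differentiation into pancreatic islet organoids.

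The groups were undifferentiated hESCs, cells resembling definitive endoderm (DE) and the primitive gut tube (PGT), pancreatic progenitors (PP), organoids holding β cells made from stem cells (SC-β organoids), and cells named PH. The labels give every group the genotype WT and give the 5 differentiated groups the same pancreatic differentiation treatment. The abbreviation PH is spelled out neither in the labels nor in the study's text, so PH is not placed in the order of the stages. All groups come from 1 cell line, and the differentiated ones are bulk cultures in which several cell types can be present. The labels list 12 RNA-seq samples, 2 replicates at each of the 6 stages, among 148 samples in all. The table gives only the authors' mean of each stage. The spread between replicates is therefore unknown, no test between stages could be made, and every value below is a mean without an error. The reads behind each TPM are likewise unknown, so a listed 0 has no detection limit.

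LIM-homeodomain proteins act in combinations. Their LIM domains bind the bridging cofactor LDB1, which dimerises and links them to each other and to distant regulatory sites, and the LIM-only proteins LMO1 to LMO4 compete for the same cofactor. In the embryo, different combinations mark different classes of neurons, and single members act in the head organiser, kidney, limb, gonad, pituitary and motor neurons. In pancreas the member of the family best known for a role is ISL1. The factors fall into 5 pairs of close relatives, LHX1 with LHX5, LHX2 with LHX9, LHX3 with LHX4, LHX6 with LHX8 and LMX1A with LMX1B, and the values are given pair by pair.

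Promoter sequence is shown for LHX2, one of the genes highest in PH, and for LHX4. LHX4 was the only member at 1 TPM or more at every stage. Sequence is also shown for the related pair LMX1A and LMX1B, whose levels differed most in SC-β organoids. The RefSeq promoter table (GRCh38.p14) had entries for 8 of the 10 members, with 15 windows in all, and LHX1 and LHX5 were not in it. The 250 bases before the RefSeq start site, or before the listed start site 1 of 2 for LMX1A, are printed 5′ to 3′ on the strand of the gene. LHX2 is at chr9:124011518-124011767 on the forward strand, LHX4 at chr1:180230014-180230263 on the forward strand, LMX1A at chr1:165356716-165356965 on the reverse strand and LMX1B at chr9:126613678-126613927 on the forward strand. Capitals mark matches on either strand to CCAAT (the CCAAT box) or GGGCGG (the GC box, CCGCCC on the other strand). TATAAA (the TATA box) and TAATTA (a core that many homeodomains bind) were also searched on both strands.
LHX2: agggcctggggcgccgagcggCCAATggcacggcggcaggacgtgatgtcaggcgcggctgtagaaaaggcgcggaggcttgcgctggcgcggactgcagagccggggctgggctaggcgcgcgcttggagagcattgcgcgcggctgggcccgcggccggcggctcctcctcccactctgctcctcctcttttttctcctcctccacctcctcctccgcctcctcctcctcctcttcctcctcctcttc
LHX4: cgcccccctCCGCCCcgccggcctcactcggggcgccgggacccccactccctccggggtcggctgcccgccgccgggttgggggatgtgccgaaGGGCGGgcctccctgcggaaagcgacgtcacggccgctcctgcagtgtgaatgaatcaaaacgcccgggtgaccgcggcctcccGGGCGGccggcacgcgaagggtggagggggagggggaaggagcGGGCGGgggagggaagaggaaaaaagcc
LMX1A: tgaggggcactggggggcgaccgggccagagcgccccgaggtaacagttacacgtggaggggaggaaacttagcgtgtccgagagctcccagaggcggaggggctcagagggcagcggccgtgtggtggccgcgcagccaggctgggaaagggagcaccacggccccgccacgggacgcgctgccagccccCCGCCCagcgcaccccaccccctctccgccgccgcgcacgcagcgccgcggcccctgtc
LMX1B: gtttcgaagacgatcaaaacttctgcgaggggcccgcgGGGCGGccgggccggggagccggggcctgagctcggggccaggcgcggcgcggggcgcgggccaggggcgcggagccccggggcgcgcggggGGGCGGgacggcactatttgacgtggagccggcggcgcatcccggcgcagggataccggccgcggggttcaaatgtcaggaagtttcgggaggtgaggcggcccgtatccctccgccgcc

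All 4 windows were rich in G, C and CpG. Their G and C content was 70.4% for LHX2, 75.2% for LHX4, 75.2% for LMX1A and 76.4% for LMX1B, against a median of 58% over the 35116 windows of all genes in the table. They held 25, 30, 27 and 38 CpG dinucleotides in the same order, against a median of 11, and the LMX1B window was at or above 97.3% of all windows. The GC box matched 4 times in the LHX4 window, once in that of LMX1A, and 2 times in that of LMX1B, and 42.6% of all windows held it. The LHX2 window held a single CCAAT box, a motif found in 32% of windows. TATAAA, found in 10.7% of windows, and TAATTA, found in 4.35%, did not match in any of the 4. A window at the other LMX1A start site, not printed, had 64.4% G and C and 18 CpG. Of the printed bases none lies in an annotated exon, apart from 23 in the LMX1B window, and the LHX2 window lies inside the gene span of a longer LHX2 transcript.

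Levels are given in TPM, a transcript abundance scaled to 1 fixed total in every stage, which divides reads by transcript length and so allows levels of different genes to be compared. Of the 9 members at 1 TPM or more in a stage, 4 had their highest level in PH, namely LHX1, LHX2, LHX5 and LHX9. A further 4 were highest in SC-β organoids, LHX4, LHX6, LMX1A and LMX1B, although LMX1B was highest in PH after rescaling the stages to a common median ratio. LHX8 was highest in PP, and LHX3 stayed at 0.0419 TPM or less throughout. Over all names at 1 TPM or more in a stage, 13.5% were highest in PH and 38.8% in SC-β organoids. None of the 9 had its highest level in hESCs, DE or PGT. In these bulk samples, a lower level can mean fewer cells of a type or less RNA in each cell, and these cannot be told apart.

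**Figure D1:**
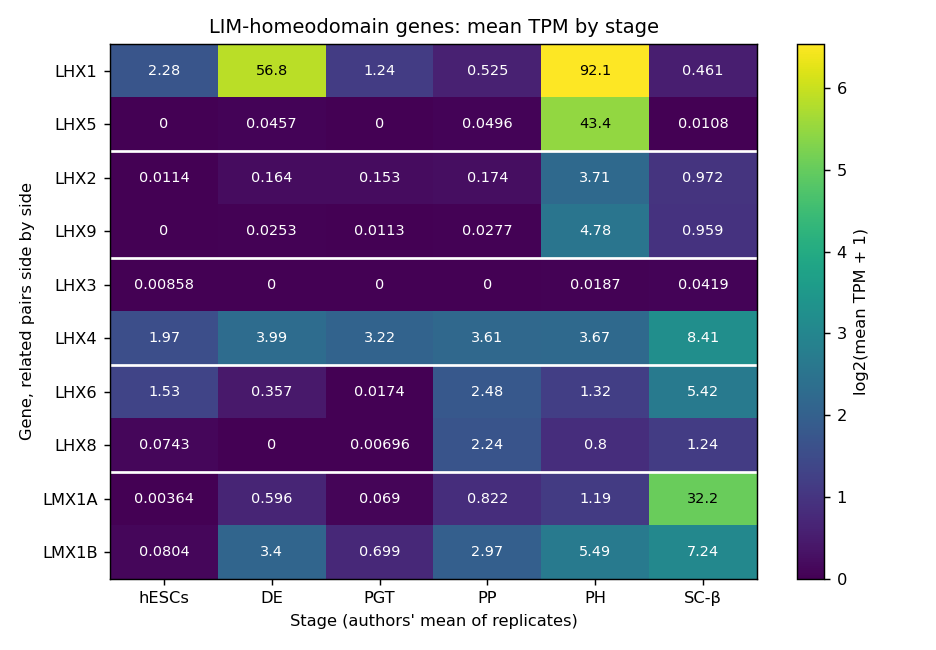
Mean TPM of the 10 LIM-homeodomain genes (rows, related pairs side by side) at the 6 stages (columns), with the TPM printed in each cell and the colour showing log2(mean TPM + 1). LHX1 reached 56.8 TPM in DE and 92.1 in PH, LHX5 reached 43.4 in PH and LMX1A reached 32.2 in SC-β organoids, and every other cell is under 10 TPM.

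The summed level of the 10 members was 5.96 TPM in hESCs, 65.3 in DE and 5.41 in PGT, then 12.9 in PP, 156 in PH and 57.0 in SC-β organoids. The set was thus abundant at 3 stages and low at the other 3. The high sums came mostly from LHX1, LHX5 and LMX1A. LHX1 was 86.9% of the sum in DE and 58.8% in PH, and LMX1A was 56.6% in SC-β organoids. LHX4 led at low level, with 59.5% of the sum in PGT and 28.0% in PP. The number of members at 1 TPM or more was 3 in hESCs, 3 in DE and 2 in PGT, then 4 in PP, 8 in PH and 5 in SC-β organoids. At 10 TPM or more there was LHX1 in DE, LHX1 and LHX5 in PH, and LMX1A in SC-β organoids.

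LHX1 lies on chr17:36936785-36944612, forward strand, in the GENCODE annotation of GRCh38, from which all gene positions are taken. It acts in the head organiser and anterior mesendoderm, in the intermediate mesoderm that forms kidney, and in several classes of spinal cord and hindbrain interneurons. Its level was 2.28 TPM in hESCs, 56.8 in DE and 1.24 in PGT, then 0.525 in PP, 92.1 in PH and 0.461 in SC-β organoids. It was therefore high at 2 separate stages, DE and PH, and at 2.28 TPM or less elsewhere. Its level was at or above that of 95.6% of all names in DE and 98.7% in PH, against 40.2% in SC-β organoids.

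LHX5 lies on chr12:113462033-113472280, reverse strand, and is known for roles in forebrain and in the same dorsal spinal interneurons as LHX1. It was listed at 0 in hESCs and PGT, at 0.0457 TPM in DE, 0.0496 in PP, 43.4 in PH and 0.0108 in SC-β organoids. Where LHX1 was high at DE, LHX5 was near 0, and in PH both were high, with LHX1 above LHX5 by 1.07 on the log2(TPM + 1) scale. LHX5-AS1, a long non-coding RNA gene on the opposite strand at chr12:113471981-113480636, starts 299 bp from the LHX5 start site and overlaps LHX5 by 300 bp. It was listed at 18.7 TPM in PH and at 0 at all other stages. The labels name a strand-specific library kit, but whether strand was used in computing TPM is not given in the sources used here, so reads of the overlap may belong to either gene.

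LHX2 (chr9:124001670-124033301, forward strand) and LHX9 (chr1:197911902-197935478, forward strand) specify dorsal commissural interneurons of the spinal cord. LHX2 also acts in eye, cortex and limb, and LHX9 in gonad and limb. LHX2 was at 0.0114 TPM in hESCs, 0.164 in DE and 0.153 in PGT, then 0.174 in PP, 3.71 in PH and 0.972 in SC-β organoids. LHX9 was listed at 0 in hESCs and was at 0.0253 TPM in DE and 0.0113 in PGT, then 0.0277 in PP, 4.78 in PH and 0.959 in SC-β organoids. The pair followed the same order of stages from PH downward, and in PH and SC-β organoids the levels of the 2 genes differed by 0.30 or less on the log2(TPM + 1) scale. Both were low in absolute terms: even in PH, LHX9 was at or above 75.5% of all names.

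LMX1A (chr1:165201867-165356715, reverse strand) and LMX1B (chr9:126613928-126701032, forward strand) act together in the roof plate of the neural tube and in midbrain dopamine neurons. LMX1B is also known for dorsal limb and kidney podocytes. LMX1A was at 0.00364 TPM in hESCs, 0.596 in DE and 0.0690 in PGT, then 0.822 in PP, 1.19 in PH and 32.2 in SC-β organoids. Its level in SC-β organoids was 27.1 times its second-highest level, that in PH, and at or above 91.4% of all names. LMX1B was at 0.0804 TPM in hESCs, 3.397 in DE and 0.699 in PGT, then 2.97 in PP, 5.49 in PH and 7.24 in SC-β organoids. LMX1B was above LMX1A at 5 stages, by 0.11 to 1.57 on the log2(TPM + 1) scale, and below it in SC-β organoids, where the difference of LMX1A over LMX1B was 2.01. The order of PH and SC-β organoids for LMX1B depends on scaling, since the log2 ratio of PH against SC-β organoids was -0.34 as deposited and 0.08 after the same rescaling.

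LHX3 (chr9:136196250-136205128, reverse strand) and LHX4 (chr1:180230264-180278984, forward strand) are needed in motor neurons and the pituitary. LHX3 was listed at 0 in DE, PGT and PP, and at 0.00858 TPM in hESCs, 0.0187 in PH and 0.0419 in SC-β organoids. It was thus the only member under 1 TPM at all 6 stages. LHX4 was the only one at 1 TPM or more at all 6, with 1.97 TPM in hESCs, 3.99 in DE and 3.22 in PGT, then 3.61 in PP, 3.67 in PH and 8.41 in SC-β organoids. The last 9332 bp of LHX4 overlap ACBD6, which is transcribed from the opposite strand and was at 30.1 to 68.4 TPM, with its lowest level in PGT and its highest in SC-β organoids. The share of ACBD6 reads in the LHX4 values was not tested.

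LHX6 (chr9:122202577-122229626, reverse strand) and LHX8 (chr1:75128434-75161533, forward strand) act in ventral forebrain, where LHX6 specifies inhibitory interneurons and LHX8 cholinergic neurons, and both are used in craniofacial mesenchyme. LHX6 was at 1.53 TPM in hESCs, 0.357 in DE and 0.0174 in PGT, then 2.48 in PP, 1.32 in PH and 5.42 in SC-β organoids. LHX8 was at 0.0743 TPM in hESCs, 0.00696 in PGT, 2.24 in PP, 0.8004 in PH and 1.24 in SC-β organoids, and was listed at 0 in DE. Both were near 0 in PGT and above 2 TPM in PP, where LHX6 was above LHX8 by 0.10 on the log2(TPM + 1) scale. In SC-β organoids it was above LHX8 by 1.52.

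**Figure D2:**
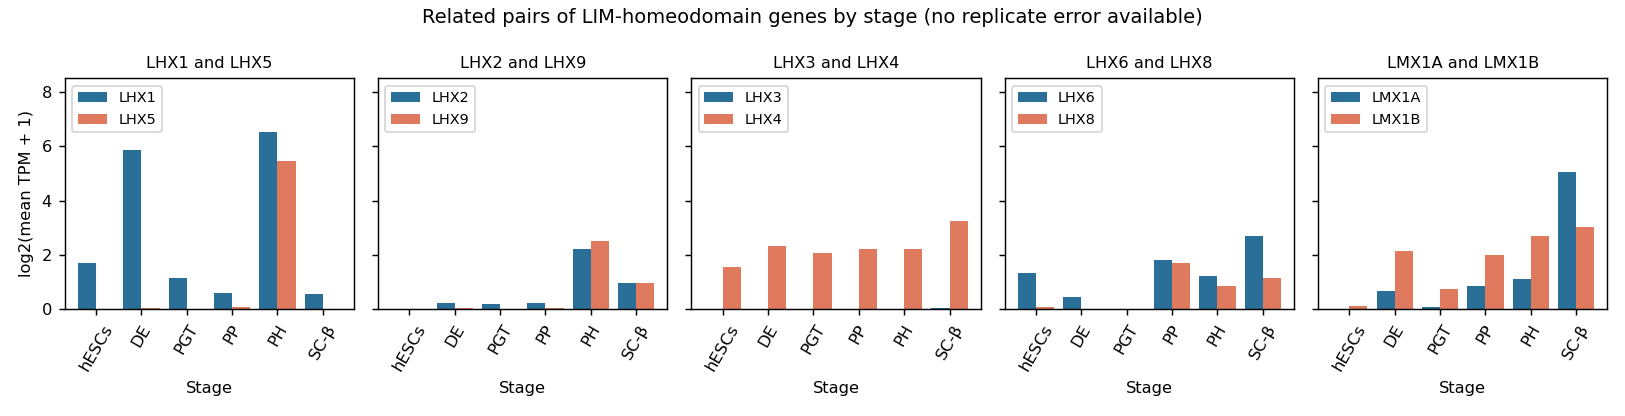
Bars give log2(mean TPM + 1) of the members of each related pair at the 6 stages; each bar is 1 mean and has no error. In PH, LHX1 and LHX5 stood at 92.1 and 43.4 TPM, while in DE only LHX1 was high, and LMX1A exceeded LMX1B only in SC-β organoids.

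Stages were compared by the log2 ratio of (TPM + 1), and a gene was called higher or lower from a 2-fold change on that scale. The added 1 TPM makes these ratios smaller than the change in TPM itself for genes at low levels. From hESCs to DE the gene with the larger change was LHX1, with a log2 ratio of 4.14 that was at or above that of 99.8% of all names, and LMX1B, with 2.02, was also called higher. No member was called lower, the lowest being LHX6 at -0.90. Over all names 12.9% were called higher and 2.55% lower. The median log2 ratio of the 10 members was 0.13 and that of all names 0.12. After rescaling, which removes a shift of 0.48 on the log2 scale between these stages, 7.32% of names were called higher and 4.82% lower, and LHX6 passed the threshold with -1.12.

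From DE to PGT the same 2 genes were called lower, LHX1 with -4.69 and LMX1B with -1.37, and no member was called higher. The shares of all names were 4.92% lower and 2.3% higher. The LHX1 ratio was among the lowest 0.0591% of all names, and the LHX1 level in PGT was below that in hESCs. The median of the members was -0.15 and that of all names -0.03.

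The genes of the head organiser and anterior mesendoderm, where LHX1 has its early role, had a similar course. Of 10 genes listed, 7 were called higher from hESCs to DE, with a median log2 ratio of 2.46, and 1 was called lower. The Nodal antagonist CER1 went from 269.7 to 1483 TPM, the T-box factor EOMES from 12.47 to 172 TPM, and the homeobox genes OTX2 and GSC from 22.1 to 229 TPM and from 5.46 to 34.6 TPM. From DE to PGT, 8 of the 10 were called lower, with a median of -4.59, and HHEX, a homeobox gene of liver and pancreas bud, was called higher. In PH, where LHX1 was again high, none of the 10 was called higher than in PP and 2 were called lower, and EOMES and LEFTY2 were listed at 0. All 5 markers of pluripotent cells were at 1 TPM or more in hESCs and also in DE, with sums of 2617 and 1347 TPM. The 5 markers of definitive endoderm summed to 2141 TPM in DE, all of them at 1 TPM or more, against 294 in hESCs and 108 in PH, and CER1, EOMES and FOXA2 are on both lists. Nearly all of the PH sum was CXCR4, at 106 TPM. In PH, FOXA2 was at 1.17 TPM and CER1 at 0.737, and SOX17, like EOMES, was listed at 0.

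From PGT to PP, 3 members were called higher, LHX6 with a log2 ratio of 1.77, LHX8 with 1.69 and LMX1B with 1.23. LHX8 was at or above 98.9% of names on this ratio although its level in PP was only 2.24 TPM. No member was called lower. Of all names, 2.74% were called higher and 3.25% lower, and the medians were 0.10 for the members and 0 for all names. No member passed 4-fold.

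The 4 pancreatic progenitor markers were all at 1 TPM or more in PP. In the same step, 6 of 10 motor neuron and ventral spinal cord genes were called higher and none lower. These 6 included MNX1, NKX6-1 and NKX6-2, homeobox genes that are also used in pancreas. Of the 6 mesenchyme markers, 4 were called higher and PDGFRA lower (11.9 against 62.0 TPM), and their summed level was 410 TPM in PP against 123 in PGT. Most of the PP sum was VIM, at 353 TPM against 52.3 in PGT. VIM is not particular to mesenchyme in these data, as it was at 226 TPM in hESCs. The part of the cells carrying these markers in the LHX6 and LHX8 values was not tested.

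From PP to SC-β organoids, 3 members were called higher, led by LMX1A with a log2 ratio of 4.19, at or above 99.9% of all names. LHX4, with 1.03, and LMX1B, with 1.05, were just past the threshold, and both fell under it after rescaling, at 0.79 and 0.82. LHX9 at 0.93, LHX6 at 0.89 and LHX2 at 0.75 were just under it. Here 10.6% of all names were called higher and 0.939% lower, and 0 members were called lower. The members' median was 0.82 and that of all names 0.16. LMX1A was the only member that kept its call under rescaling and at 4-fold.

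Markers of several cell types were higher in SC-β organoids than in PP. The 6 islet endocrine markers were all called higher, and their summed level was 4122 TPM against 291. All 6 mesenchyme markers were called higher too, with a median of 3.37 and sums of 3079 against 410 TPM, and so were ALB and TTR, 2 of 4 hepatic markers. VIM was 1767 TPM of the mesenchyme sum in SC-β organoids and 353 TPM of that in PP. Of the 8 neuron markers, 4 were called higher and none lower, with a median of 0.99, and of the 6 neural progenitor markers 3 were called higher and 1 lower. Of the limb bud and gonad genes, 4 of 7 were called higher, including TBX5 (10.4 against 0.377 TPM) and PRRX1 (213 against 16.4 TPM). The part of any of these cells in the LMX1A value was not tested.

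Genes of the tissues where LMX1A is best known moved unevenly in the same comparison. Of 13 dorsal spinal cord and hindbrain genes, 5 were called higher in SC-β organoids than in PP and 1 lower, with a median log2 ratio of 0.69. The 5 included the roof plate genes GDF7 (27.7 against 0.724 TPM), WNT1 (10.96 against 0.509 TPM) and MSX1 (61.4 against 28.2 TPM). Of 11 midbrain dopamine and floor plate genes, 2 were called higher, MSX1 and CORIN (39.1 against 0.991 TPM), and 2 lower, FOXA2 and NEUROG2, with a median of 0.04.

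In PH, 4 members were called higher than in PP, and they were the 4 that had their highest level there. The log2 ratio was 5.93 for LHX1, 5.40 for LHX5, 2.49 for LHX9 and 2.00 for LHX2, all at or above 98.7% of names. No member was called lower, the lowest being LHX8 at -0.85. Over all names 5.14% were called higher and 5.73% lower, and after rescaling, a shift of -0.22, 6.84% and 4.45%. The members' median was 0.49 and that of all names 0.

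Against SC-β organoids the same 4 genes were called higher in PH, LHX1 with 5.99, LHX5 with 5.46, LHX9 with 1.56 and LHX2 with 1.26, and LMX1A with -3.92, LHX6 with -1.47 and LHX4 with -1.01 were called lower. In this comparison 2.41% of all names were called higher and 14.7% lower, and after rescaling, which removes a shift of -0.50, 4.3% and 8.24%. LHX4 fell under the threshold after rescaling, at -0.59. The LMX1A ratio was at or above only 0.128% of names. The comparisons of PH with PP and with SC-β organoids share the PH mean, so they are not independent of each other.

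**Figure D3:**
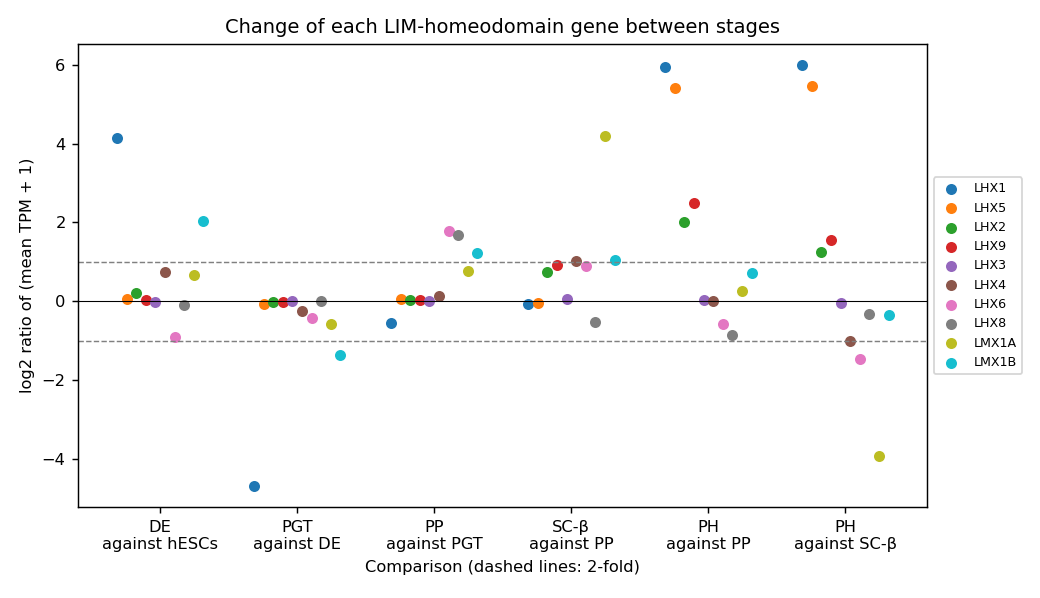
Each point is the log2 ratio of (mean TPM + 1) of 1 LIM-homeodomain gene in 1 of 6 comparisons, and the dashed lines mark 2-fold. LHX1 lies at 4.14 for DE against hESCs and at -4.69 for PGT against DE, LMX1A at 4.19 for SC-β organoids against PP, and LHX1 and LHX5 at 5.93 and 5.40 for PH against PP.

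The PH cells are labelled as a product of pancreatic differentiation, and markers were used to check them. PDX1, the defining factor of pancreatic progenitors, was at 0.0173 TPM in PH against 3.17 in PP, and NKX6-1 was also called lower, while PTF1A, which is used in dorsal interneurons as well as in pancreas, was called higher. SOX9 was at 27.2 TPM in PH and 23.7 in PP, and the 4 progenitor markers together summed to 35.1 and 30.1 TPM. The islet markers summed to 174 TPM in PH and 291 in PP, with NKX2-2 listed at 0 in PH. Of these 6 markers, only CHGA was called lower in PH than in PP (70.0 against 215 TPM). The other 5 changed by less than 2-fold. By contrast, all 8 neuron markers were called higher in PH than in PP, with a median log2 ratio of 3.27, and their sum was 1246 TPM in PH against 80.0 to 227 at the other stages. All 6 neural progenitor markers were also called higher, with a sum of 313 TPM in PH, and so were all 6 mesenchyme markers, with a sum of 1966 TPM. VIM was 1437 TPM of the mesenchyme sum. STMN2, a microtubule regulator of neurons, was at 301 TPM in PH and 4.48 in PP, and HES5, a Notch target of neural progenitors, was at 109.8 and 0.0882 TPM. The part of neuronal and mesenchymal cells in the PH levels of LHX1, LHX5, LHX2 and LHX9 was not tested.

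Genes of the dorsal spinal cord and hindbrain, the region where LHX1, LHX5, LHX2 and LHX9 mark interneurons, were higher in PH in 7 of 13 cases and lower in none, with a median log2 ratio against PP of 1.08. SKOR1, a co-repressor of dorsal interneurons, was at 57.1 TPM in PH and 0.207 in PP. PAX2, a factor of inhibitory interneurons and kidney, was at 26.4 against 0.227 TPM, LBX1, a homeobox gene of dorsal interneurons, was at 24.4 TPM in PH and listed at 0 in PP, and TLX3, of excitatory interneurons, was at 7.004 against 0.318 TPM. The roof plate genes GDF7, WNT1 and MSX1 of the same list were not among the 7. Against SC-β organoids 8 of the 13 were called higher in PH, with a median of 1.90, and 4 were called lower, GDF7, WNT1, MSX1 and the homeobox gene BARHL2. Of 10 motor neuron and ventral spinal cord genes, none was called higher in PH than in PP and 4 were called lower. Of 11 forebrain and hypothalamus genes, 1 was called higher, the POU factor POU3F2, and 3 lower, DLX1, DLX2 and DLX5.

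Among 53 homeobox genes outside the family, 16 were called higher and 9 lower in PH than in PP, with a median of 0. Those higher included UNCX (24.9 against 0.0986 TPM), POU3F3 (30.4 against 0.855 TPM), POU4F1 (23.1 against 0.688 TPM) and GBX2 (31.3 against 3.75 TPM), all of them factors of neural development. Of 6 kidney and intermediate mesoderm genes, where LHX1 also acts, only PAX2 was called higher, and EYA1 was called lower.

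**Figure D4:**
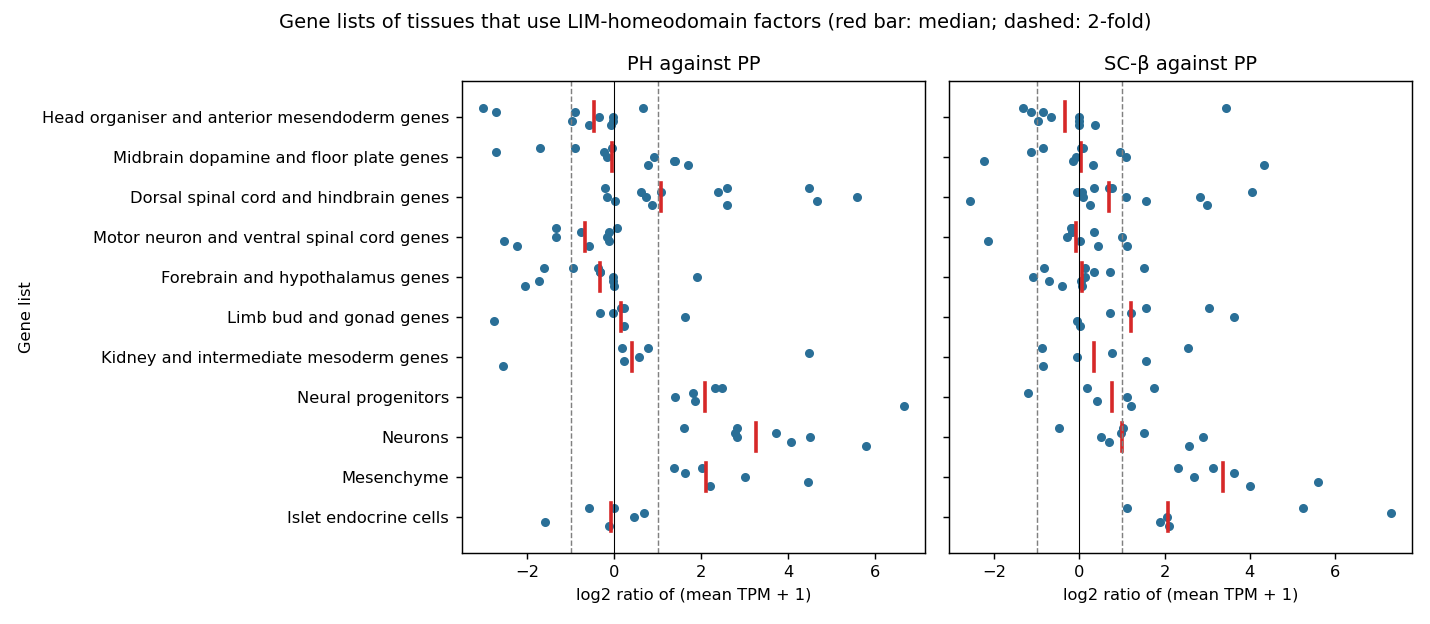
Each point is the log2 ratio of (mean TPM + 1) of 1 gene of a list, for PH against PP (left) and SC-β organoids against PP (right), with the list median as a red bar and 2-fold as dashed lines. Neuron markers had a median of 3.27 in PH and dorsal spinal cord and hindbrain genes 1.08, while in SC-β organoids mesenchyme markers had a median of 3.37 and islet markers 2.07.

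The cofactor LDB1, which the family needs, was at 40.4 TPM in hESCs, 64.6 in DE and 69.6 in PGT, then 69.9 in PP, 103.9 in PH and 83.3 in SC-β organoids, with no call in any comparison. Its partner SSBP3, which stabilises LDB1, was called higher in DE than in hESCs (145 against 27.2 TPM) and lower in PP than in PGT (45.8 against 98.7 TPM). LDB2, the close relative of LDB1, was at 47.2 TPM in hESCs, 8.75 in DE and 0.857 in PGT, then 4.43 in PP, 10.3 in PH and 36.4 in SC-β organoids. It was lowest in PGT, the stage with the lowest summed level of the members. In hESCs, where that sum was nearly as low (5.96 against 5.41 TPM), LDB2 had its highest level. Of the 12 partners, 3 were called higher in PH than in PP, LDB2, LMO1 and LMO3, and 1 lower, ISL1.

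ISL1 had its highest level in PGT, where the summed level of the other factors was lowest. Yet in hESCs, where that sum was nearly as low (5.96 against 5.41 TPM), ISL1 had its lowest level. It was at 0.0206 TPM in hESCs, 9.36 in DE and 58.3 in PGT, then 14.0 in PP, 5.79 in PH and 18.9 in SC-β organoids. With ISL1 and ISL2 added, the sum of LIM-homeodomain RNA was 0.154 times the LDB1 level in hESCs, 1.16 times in DE and 0.916 in PGT, then 0.399 in PP, 1.58 in PH and 0.9301 in SC-β organoids. Measured as RNA, the family thus exceeded LDB1 in DE and PH. LDB2, at 8.75 TPM in DE and 10.3 in PH, is not counted in this ratio, nor are the LIM-only genes. The LIM-only genes LMO1 to LMO4 summed to 33.4, 21.7, 45.6, 44.7, 42.6 and 45.2 TPM in the same order, lowest in DE.

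**Figure D5:**
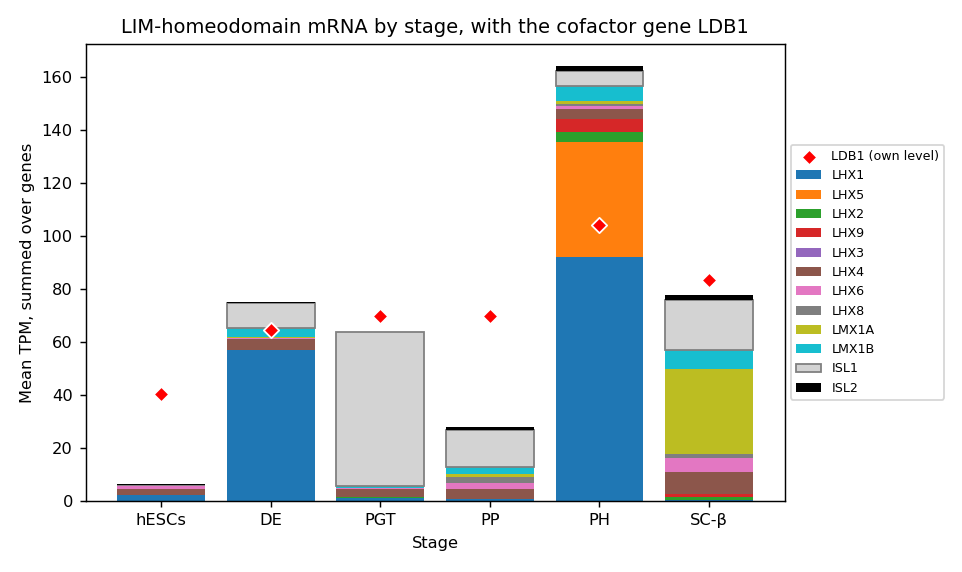
Stacked bars give the mean TPM of the 10 LIM-homeodomain genes and of ISL1 and ISL2 at each stage, and diamonds give the level of the cofactor gene LDB1. LHX1 makes up most of the bar in DE, ISL1 in PGT, and LHX1 and LHX5 in PH. LMX1A, at 32.2 TPM, is the largest segment in SC-β organoids, and the bar passes the LDB1 diamond in DE and PH.

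The genes most alike each member in course over the 6 stage means were ranked by Pearson's r of log2(TPM + 1) among the other protein-coding genes that reached 10 TPM at a stage, 10657 at most. The 6 points share the same cultures and differ in composition, so r is given as a description. LHX5 was most like SKOR1 (r = 0.999), the glycine transporter gene SLC6A5 (0.999) and UNCX (0.998), each highest in PH. LHX2 and LHX9 shared 2 of their 3 genes, GLRA2, a glycine receptor subunit, and SLC17A6, the vesicular glutamate transporter of excitatory neurons. The third was CPLX2, a synaptic gene, for LHX2 and LBX1 for LHX9, and the r of all 6 was 0.996 or more.

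LHX1, with its 2 high stages, had few close matches. Its nearest genes were DALRD3 (r = 0.981), the brain proteoglycan gene NCAN (0.963) and the neuronal adaptor gene AP3B2 (0.954), and 4 genes in all reached 0.95. Because r does not depend on the size of a change, DALRD3 ranked first although it only ranged from 9.83 to 14.7 TPM. NCAN repeated both peaks, with 8.51 TPM in DE and 40.9 in PH against under 1 TPM elsewhere. For LMX1A the nearest were KAZN (0.994), the roof plate ligand GDF7 (0.994) and TMEM45B (0.994), and for LMX1B the receptor phosphatase gene PTPRD (0.992), the sialyltransferase gene ST3GAL3 (0.9903) and the growth factor gene VEGFB (0.987). LHX6 was most like LRP11 (0.995), RFTN1 (0.987) and INPP4B (0.985), and the genes near LHX8 included TMEM14A (0.992) and NELL1 (0.985). The matches of LHX4 included NBPF14 (0.996) and the G protein gene GNB3 (0.996), and NBPF14 belongs to a family of near-identical copies, so that its value is uncertain. The other members ranked had from 16 genes (LHX6) to 112 (LHX2) at 0.95 or more, with 77 for LMX1A. Of the 27 matches ranked in this way, 14 were still among the 3 most alike with a pseudocount of 0.1 TPM. All those of LHX1 and LHX9 were among these 14. For LMX1A, GDF7 fell to rank 37 and TMEM45B to 21, and for LHX2, GLRA2, CPLX2 and SLC17A6 fell to 10, 22 and 60.

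The values depend on how the stage totals were filled. Between 16784 names in hESCs and 24571 in SC-β organoids reached 1 TPM, and the 100 most abundant names held 47.6% of the total in DE and 62.9% in PH. Because TPM has a fixed total, the level of any member is relative to these shares.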

How the data were processed

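HISAT2 (v2.2.0) was used by the authors for alignment to hg38, and StringTie (v2.1.6) for TPM per gene, as the submitters' processing notes and the study's methods state. RNA was depleted of ribosomal RNA and made into strand-specific libraries per the labels. The authors deposited TPM averaged over the replicates of each stage, so counts, depth and replicate spread are unknown. The annotation is not given in the sources used here. The table has 50451 entries under 49085 names, and the 231 names with several entries were summed.

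Each stage mean was converted to log2(TPM + 1), ratios were called from 2-fold, and the share called over all 49085 names was given beside each count. Genes were named if they were a member, were among the 3 most alike a member at 1 TPM or more in a stage, or belonged to a fixed list and were either among its 4 most abundant or called in the comparison described. The exceptions, chosen after their values were seen, are ACBD6, the cell type markers and the genes listed at 0. Some genes that this rule covers are not reported here. Members and lists were chosen with earlier results of these data known. Positions are from GENCODE v44 on GRCh38, the build of hg38, and promoters from RefSeq on GRCh38.p14.

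The alternatives were a pseudocount of 0.1 TPM, median-ratio rescaling (every stage divided by the median, over 13938 names at 1 TPM or more everywhere, of its TPM over the geometric mean across stages), totals without the 100 most abundant names, a 4-fold threshold, a filter at 1 TPM in either stage compared, and the highest entry of a repeated name. The calculations were tested on simulated data. Python 3.11.15, numpy 2.4.6, pandas 2.3.3 and matplotlib 3.10.9 were used. The ChIP-seq, ATAC-seq and CUT&Tag samples were not analysed here.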

Additional observations from a re-analysis of the deposited data

How the results depend on the processing

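No log2 ratio of a member called at 2-fold changed sign under any alternative. The ratios of LHX2 in PGT against DE (-0.01) and of LMX1B in PH against SC-β organoids (-0.34), neither of them called, became 0.01 and 0.08 after rescaling. Of the 240 log2 ratios recomputed over the 60 of the report, 217 stayed on their side of 2-fold, 17 passed it and 6 no longer did, and of the 72 recomputed counts of called members 58 stayed within 1.5 times and 14 did not. The share of all names called under the same setting is given in brackets. With a pseudocount of 0.1 TPM, which weighs low levels more, 4 members were called higher (31.4%) and 1 lower (6.51%) in DE against hESCs, 4 lower (15.9%) in PGT against DE, 1 lower (10.8%) in PP against PGT, 6 higher (28.4%) in SC-β organoids against PP and 1 lower (16.9%) in PH against PP. After rescaling, 1 member was called lower in DE against hESCs (4.82%), as also without the 100 most abundant names (4.11%), and 1 was called higher in SC-β organoids against PP (7.03%). At 4-fold, 1 member was called lower in PGT against DE (1.08%), 0 higher in PP against PGT (0.735%), 1 higher in SC-β organoids against PP (1.72%), and 2 higher (0.613%) and 1 lower (2.35%) in PH against SC-β organoids. The highest stage of LMX1B became PH after rescaling (6.53 rescaled TPM) and without the 100 most abundant names (14.8), and the other members kept theirs. Summing repeated names or keeping their highest entry gave the members equal values, since each has 1 entry. That setting therefore could not move a ratio or a count. Nor could the filter at 1 TPM move a count, since a 2-fold call on this scale needs 1 TPM or more. The unmoved counts of both settings are included in the 58, and the unmoved ratios of the repeated-name setting in the 217. No paired analysis was possible because the table holds 1 mean per stage and no value of a single replicate, and leaving out each replicate was not run for the same reason. Reads behind a value are unknown, so levels far under 1 TPM, such as those of LHX3, cannot be told from 0.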
